A study of Homo sapiens and Mus musculus with 18 samples.

Results

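IL32, EBI3 and GNG8 are 3 human genes of the 15069 measured in the lymphoma line BL41. They were chosen by gene symbol, and their symbols were selected on earlier results of the same libraries, in which they stood near the top of the order of differences from sham after X-rays and after protons. Their differences from sham are therefore given as a description without a test, and the comparison of protons with X-rays, which played no part in the choice, was tested. Each of the 3 symbols stands on a single entry of the BL41 table (ENSG00000008517 for IL32, ENSG00000105246 for EBI3 and ENSG00000167414 for GNG8). None of the 3 has an entry among the 12264 genes of the mouse line J3D, so nothing could be measured for them there.

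RNA sequencing covered 18 samples in all, 9 from BL41, a human line established from a Burkitt lymphoma, and 9 from J3D, a mouse line labelled with the same tumour type. In each line, 3 libraries came from sham cells, 3 from cells given 5 Gy of X-rays by a 6 MV linear accelerator and 3 from cells given 5 Gy of protons. The protons were scanned over cells lying in the centre of the spread-out Bragg peak, the depth range in which a proton beam gives an even dose, with energies of 129.3 to 148.2 MeV/u; the linear energy transfer had a median of 3.5 keV/µm and ran from 2.9 to 7.9 keV/µm. All cells were at passage 5 to 10, had been put into fresh suspension 6 h earlier and gave RNA 12 h after exposure, and sham cells stood at room temperature outside the incubator meanwhile. Both are established lines grown in culture, without the other cells of a tumour. The labels do not say that the 3 libraries of a group were separate cultures, so the errors and p-values cover nothing but the spread among these libraries, and that spread may be technical.

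IL-32 is a proinflammatory cytokine known from human T cells, NK cells, monocytes and epithelial cells, where it raises the output of TNF and other cytokines; rodents are not known to have the gene. EBI3 was found as a transcript that Epstein-Barr virus induces in B lymphocytes. Its product is a secreted, receptor-like subunit that pairs with p28 (the IL27 gene) to form IL-27 and with p35 (IL12A) to form IL-35. GNG8 encodes a gamma subunit of heterotrimeric G proteins, which carries a lipid anchor and holds a beta subunit at the membrane, and which in rodents is best known from olfactory and vomeronasal neurons. NF-kB transcription factors, which act downstream of CD40 and of the viral protein LMP1 in B cells, are known regulators of many cytokine genes of this kind.

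All expression values below are logarithms that the authors had centred, so 0 is close to the average of the libraries of a replicate number and no value is an absolute level. The base was read as 2 because no source names it. The sequencing depth is unknown. In bulk RNA, fewer cells with a transcript and less transcript per cell cannot be told apart.

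IL32 was 5.01-fold more abundant after X-rays and 4.42-fold more abundant after protons than in sham cells. Its centred value was −1.69, −1.31 and −1.92 in sham libraries 1, 2 and 3, 0.82, 0.13 and 1.11 after X-rays, and 0.61, 0.49 and 0.41 after protons. Every irradiated library stood above every sham library, and X-ray library 2 was the lowest of the irradiated ones. The group means were −1.64 ± 0.309 (SD, n = 3) for sham, 0.68 ± 0.501 for X-rays and 0.50 ± 0.103 for protons. The proton libraries lay closer together than the X-ray libraries, whose spread came mainly from library 2. The fitted difference from sham was 2.32 ± 0.29 (log2, SE) after X-rays and 2.14 ± 0.29 after protons.

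EBI3, the cytokine subunit, was 3.19-fold higher than sham after X-rays and 3.75-fold higher after protons. Its centred value was −1.61, −1.13 and −1.41 in the sham libraries, 0.79, −0.32 and 0.41 after X-rays, and 0.55, 0.59 and 0.44 after protons. The irradiated and sham libraries did not overlap, but X-ray library 2 was only 0.81 above the highest sham library. Group means were −1.38 ± 0.239 (SD, n = 3) for sham, 0.29 ± 0.564 for X-rays and 0.53 ± 0.0745 for protons. X-rays gave the widest spread of the 3 groups and protons the narrowest. The fitted difference from sham was 1.68 ± 0.33 (log2, SE) after X-rays and 1.91 ± 0.33 after protons.

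GNG8, the G protein gamma subunit, was 5.07-fold higher than sham after X-rays and 5.49-fold higher after protons. Its centred value was −1.80, −2.18 and −1.30 in the sham libraries, 0.70, 0.23 and 0.82 after X-rays, and 0.80, 0.93 and 0.37 after protons. Here the sham libraries differed most among themselves, and again no irradiated library reached down to a sham value. Group means were −1.76 ± 0.440 (SD, n = 3) for sham, 0.58 ± 0.313 for X-rays and 0.70 ± 0.296 for protons. The fitted difference from sham was 2.34 ± 0.30 (log2, SE) after X-rays and 2.46 ± 0.30 after protons.

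**Figure D1:**
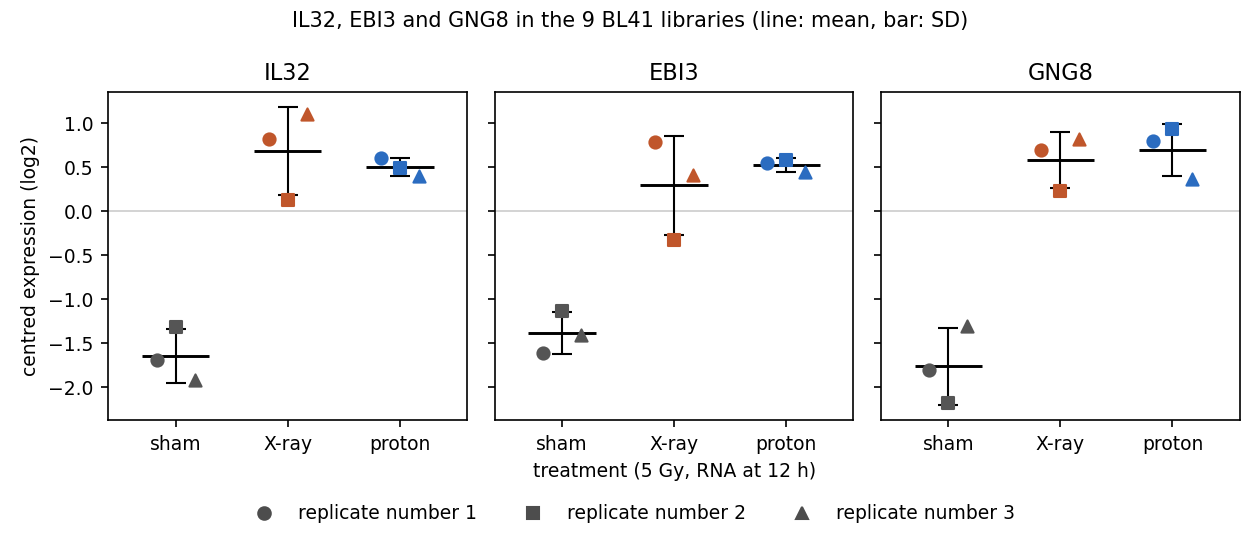
Centred expression (log2) of IL32, EBI3 and GNG8 in the 9 BL41 libraries, by treatment, with symbols for the replicate number, a line for the group mean and a bar for the SD of 3 libraries. All sham libraries lie between −2.18 and −1.13 and all irradiated ones between −0.32 and 1.11, with X-ray library 2 the lowest X-ray library for each gene.

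For all 3 genes the 6 irradiated libraries lay above the 3 sham libraries. The 3 genes were chosen for large differences from sham, so this separation largely follows from the choice. The share of all genes separated in this way was not counted, here or for the genes below. The gap between the lowest irradiated and the highest sham library was 1.44 for IL32, 0.81 for EBI3 and 1.53 for GNG8 after X-rays, and 1.71, 1.57 and 1.67 after protons (log2). Of all genes measured in BL41, 4.83% stood higher and 0.518% lower after X-rays at an adjusted p of 0.05 or less in limma, and 5.91% were higher and 0.903% lower after protons; the choice of the 3 genes used these contrasts, and nothing is read from the comparison. These shares correspond to 728 and 78 genes after X-rays and 891 and 136 after protons. Such calls depended on the model: 0 of 15069 genes were called in either comparison with sham when the replicate number was a block or when only the 2 groups compared were fitted, although 3555 and 4278 genes had an unadjusted p under 0.05 in the model used here. Leaving out X-ray library 1 likewise left 0 calls after X-rays, and leaving out proton library 1, 2 or 3 left 3, 10 and 0 after protons. Every statement below that a gene rose or fell holds within the model of all 9 libraries and carries this limit. The median difference from sham over all genes was 0.09 after X-rays and 0.12 after protons.

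Ordered by the difference from sham, GNG8 was 2nd, IL32 4th and EBI3 12th of the 15069 genes after X-rays. After protons they were 1st, 4th and 6th. Several of the entries ranked among them were poorly determined. After X-rays the highest was RP11-298I3.5 at 2.98 ± 0.55, the 3rd was AC225613.5 at 2.32 ± 0.50 and the 5th was the immunoglobulin segment IGHD3-3 at 2.0 ± 0.72, and the gene just above EBI3, ARHGAP27, stood at 1.68 ± 0.34. After protons the chemokine gene CCL17 was 2nd at 2.29 ± 0.34, AL805909.1 3rd at 2.18 ± 0.66 and the T-cell receptor segment TRAJ54 5th at 1.94 ± 0.81, and CCL3, next after EBI3, stood at 1.87 ± 0.33. Adjacent entries such as ARHGAP27 and EBI3, or AC225613.5 and IL32, differed by less than their errors. The places of IL32, EBI3 and GNG8 restate their choice, which used earlier results of the same libraries.

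Within a replicate number the differences were uneven. IL32 exceeded its own-numbered sham library by 2.51, 1.44 and 3.03 after X-rays in numbers 1, 2 and 3, and by 2.30, 1.80 and 2.33 after protons. The corresponding differences of EBI3 were 2.40, 0.81 and 1.82 after X-rays and 2.15, 1.72 and 1.85 after protons. For GNG8 they were 2.49, 2.41 and 2.12, then 2.59, 3.11 and 1.67. Number 2 gave the smallest X-ray difference of IL32 and EBI3, where EBI3 fell from place 7 of all genes in number 1 to place 970. GNG8 did not share that dip, because its sham library 2 was low as well; its smallest differences were in number 3.

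**Figure D2:**
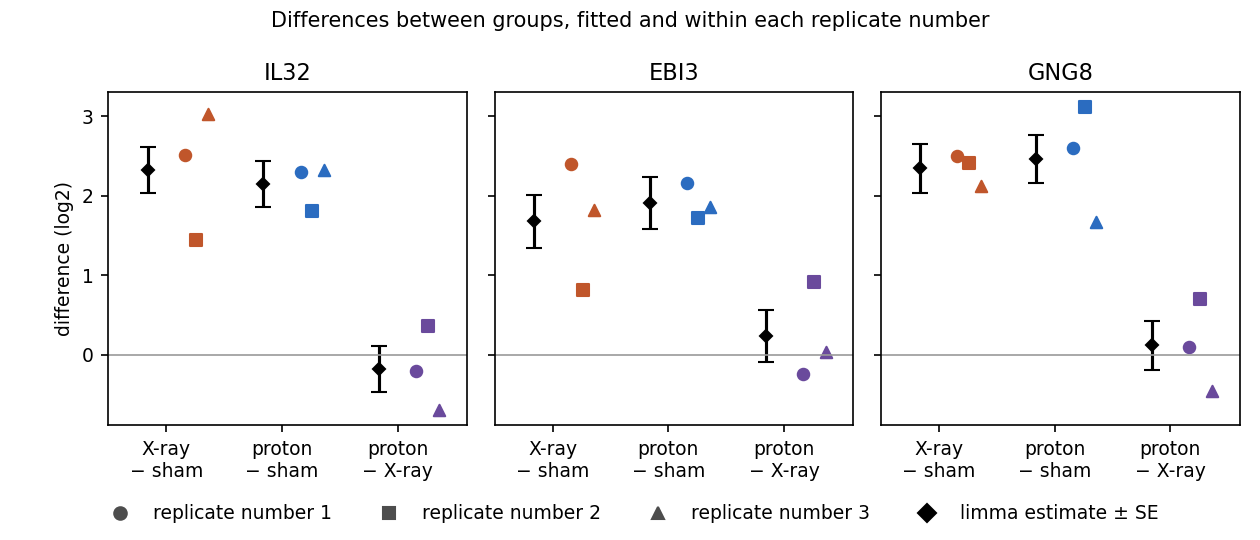
Differences between groups (log2) for IL32, EBI3 and GNG8, as the limma estimate with its SE (black diamonds) and within each replicate number (coloured symbols). Every difference from sham is above 0, from 0.81 to 3.11, and the proton minus X-ray differences lie on both sides of 0.

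The spread of the 3 genes was itself large. The within-group SD over the 9 libraries was 0.345 for IL32, 0.356 for EBI3 and 0.356 for GNG8, against a median of 0.146 over all BL41 genes. A larger SD was found for 7.7, 7.0 and 7.1% of genes.

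The beams were compared at the same dose and time. Protons minus X-rays came to −0.18 ± 0.29 (log2, SE) for IL32, with a 95% interval of −0.84 to 0.48 and an adjusted p of 0.81 in limma. For EBI3 the difference was 0.23 ± 0.33, the interval −0.51 to 0.98 and the limma adjusted p 0.785. For GNG8 it was 0.12 ± 0.30, the interval −0.57 to 0.80 and the limma adjusted p 0.888. No difference between the beams was detectable for any of the 3 genes, and the groups overlapped in each. The intervals allow proton to X-ray ratios of 0.56 to 1.39 for IL32, 0.70 to 1.97 for EBI3 and 0.673 to 1.74 for GNG8, so they leave room for a moderate difference either way. The sign was not stable among libraries. Within numbers 1, 2 and 3 the proton minus X-ray difference was −0.21, 0.36 and −0.70 for IL32, −0.24, 0.91 and 0.03 for EBI3, and 0.10, 0.70 and −0.46 for GNG8. Number 2, with its low X-ray library, was the most positive for each gene. Without X-ray library 3 the IL32 difference became 0.03, without X-ray library 2 those of EBI3 and GNG8 became −0.08 and −0.06, and without proton library 2 that of GNG8 became −0.00129. Over all BL41 genes, 0% (0 of 15069) differed between the beams in limma, 1779 had an unadjusted p under 0.05, and 1 was called after quantile normalization.

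The 3 genes followed one another across the 9 libraries, with Pearson r of 0.963 for EBI3 with IL32, 0.939 for EBI3 with GNG8 and 0.938 for GNG8 with IL32. The split between sham and irradiated libraries, the same for all points, makes up most of these values. Over the 6 irradiated libraries alone r was 0.625, 0.726 and 0.682. IL32 was only the 13th most similar gene to EBI3, and GNG8 the 56th. The 5 genes most like IL32 over the 9 libraries were ARL2BP (r = 0.990), HCLS1 (0.988), APOBEC3G (0.985), B3GNT1 (0.985) and PLOD1 (0.980). Those most like EBI3 were HLA-B (0.981), MELK (0.975), RBM47 (0.973), XKR8 (0.972) and ARL2BP again (0.972), and those most like GNG8 were SGOL1 (0.990), IFNLR1 (0.989), SUSD1 (0.985), SMARCAL1 (0.979) and AMACR (0.979). The HLA-B entry, ENSG00000223532, is one of several copies of that gene in the annotation and its reads may be split among them. The patterns were alike in shape but not in size. APOBEC3G, a cytidine deaminase that restricts retroviruses, was 0.75 ± 0.09 above sham after X-rays and 0.69 ± 0.09 after protons, and ARL2BP stood at 0.30 ± 0.07 after either beam, far less than IL32. All points share the 3 sham libraries and the centring, so these likenesses are a description only.

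Promoter windows of the 3 genes are shown because the genes were high in the same libraries. They come from RefSeq on GRCh38.p14, run 5′ to 3′ on the gene's strand and are limited to bases upstream of any annotated exon. IL32 is on the plus strand (chr16:3065153-3065296), EBI3 on the plus strand (chr19:4229273-4229497) and GNG8 on the minus strand (chr19:46636203-46636452). Capitals mark matches, on either strand, to an NF-kB-type motif, here GGG and CC separated by any 5 bases.
IL32: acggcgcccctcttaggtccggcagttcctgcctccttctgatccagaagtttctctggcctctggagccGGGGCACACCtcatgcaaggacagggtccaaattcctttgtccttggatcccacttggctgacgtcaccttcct
EBI3: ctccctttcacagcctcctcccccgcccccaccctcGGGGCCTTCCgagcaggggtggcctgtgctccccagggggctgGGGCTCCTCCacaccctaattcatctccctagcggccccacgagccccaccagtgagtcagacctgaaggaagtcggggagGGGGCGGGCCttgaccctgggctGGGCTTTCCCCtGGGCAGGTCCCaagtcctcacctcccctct
GNG8: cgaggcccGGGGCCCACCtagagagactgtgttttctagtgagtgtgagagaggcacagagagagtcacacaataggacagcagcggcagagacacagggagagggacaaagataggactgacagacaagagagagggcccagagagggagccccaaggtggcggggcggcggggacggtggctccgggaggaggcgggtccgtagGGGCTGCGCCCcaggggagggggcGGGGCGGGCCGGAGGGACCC
In the full 250 bases before the start, overlapping matches counted, IL32 held 4 such matches, EBI3 8 and GNG8 5. Those of IL32 nearest the start, outside the stretch shown, include GGGAGTTTCC 99 bases before it and GGACTTTCCC 68 bases before it. The latter is printed as on the gene's strand and matches when read on the opposite strand. EBI3 holds GGGCTTTCCC 67 bases before its start. Of 35116 promoter windows of this length, 54.4% hold at least 1 match, so its presence is common. Matches per window were not compared with other promoters, and a stretch that matches on both strands counts more than once. The motif has only G and C at its fixed places. These bases make up 60.8% of the IL32 window, 68.8% of EBI3 and 67.6% of GNG8, against a median of 58% for promoters. The EBI3 window also holds the AP-1 motif TGAGTCA 118 bases before the start, and 6.57% of windows hold TGANTCA. No window of the 3 genes held a STAT-type motif (TTC and GAA separated by any 3 bases, 6.57% of windows), an interferon-response core (GAAA repeated after any 2 bases, 3.02%), the E-box CACGTG (6.34%) or TATAAA (10.7%). A second IL32 start listed by RefSeq, for which no sequence is shown, held 1 NF-kB-type match. The GNG8 start of RefSeq lies 1517 bases from the nearest start in GENCODE 29, so its window may not be the promoter in use. A match describes the letters only.

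Among genes that work with EBI3, 1 of the 2 chains of the IL-27 receptor rose after both beams. IL27RA, the specific chain of that receptor, stood at −0.40, −0.39 and −0.44 in the sham libraries, 0.05, 0.16 and 0.10 after X-rays, and 0.19, 0.16 and 0.05 after protons. All irradiated libraries were above all sham ones, and the libraries of a group lay close together. IL27RA rose by 0.51 ± 0.09 after X-rays (limma adjusted p = 0.021) and by 0.54 ± 0.09 after protons (limma adjusted p = 0.0186). IL6ST, the shared signalling chain gp130, did not pass. It differed from sham by 0.65 ± 0.20 (limma adjusted p = 0.0956) and 0.64 ± 0.20 (limma adjusted p = 0.082), with single high libraries in each irradiated group at 0.68 after X-rays and 0.62 after protons. STAT3, a transcription factor that receptors with gp130 activate, rose by 0.58 ± 0.11 and 0.53 ± 0.11. JAK2, a kinase that acts at cytokine receptors, rose after X-rays by 0.46 ± 0.10 and stood at 0.33 ± 0.10 after protons, short of the threshold. It did not pass the test between the beams.

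Of 19 other genes of the IL-12 and IL-27 family, their receptors and signalling chains, 11 had an entry. After X-rays 3 of the 11 rose, where 4.83% of all genes were called higher, and after protons 3 rose, where 5.91% were; 0 fell with either beam. The median difference was 0.29 against 0.09 over all genes after X-rays and 0.33 against 0.12 after protons. The 8 genes without an entry include IL27 and IL12A, the partner subunits of EBI3 in IL-27 and IL-35, so no heterodimer could be followed. SOCS1, an inhibitor of JAK signalling, differed from sham by 0.02 ± 0.13 and 0.04 ± 0.13, and IL23A by 0.02 ± 0.16 and −0.21 ± 0.16, neither past the threshold. In J3D, 10 of the 19 had an entry and none passed. The mouse Il27ra differed from sham by 0.34 ± 0.14 after protons (limma adjusted p = 0.247), and the mouse Stat3 by 0.02 ± 0.13.

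Few of the genes linked to IL32 could be measured. Of 19 such genes, 9 had an entry, and TNF, a cytokine that IL-32 induces, and PRTN3, a protease that binds it, were among the 10 without. With each beam 1 of the 9 rose and 0 fell, which with so few genes cannot be set apart from the 4.83% and 5.91% of all genes called higher. NOD1, a sensor of bacterial peptidoglycan, rose after X-rays by 0.41 ± 0.08 and stood at 0.26 ± 0.08 after protons, and the integrin chain ITGAV rose after protons by 0.52 ± 0.11 and stood at 0.38 ± 0.11 after X-rays. The median difference was 0.15 after X-rays and 0.09 after protons, close to the medians of all genes. In J3D 10 of the 19 had an entry and 0 were called.

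Of 29 other gamma, beta and alpha subunit genes, 20 had an entry, and after each beam 1 of the 20 rose and 0 fell, a share near the 4.83% and 5.91% of all genes called higher after X-rays and protons. The one that rose was GNA12, an alpha subunit. It stood at −0.31, −0.43 and −0.28 in the sham libraries, 0.19, 0.13 and 0.08 after X-rays, and 0.06, 0.11 and 0.09 after protons. All its irradiated libraries stood above all its sham libraries, while the X-ray and proton libraries overlapped. GNA12 differed from sham by 0.47 ± 0.07 after X-rays (limma adjusted p = 0.0197) and 0.43 ± 0.07 after protons (limma adjusted p = 0.0235). The beta subunits, 1 of which each gamma subunit binds, stayed short of the threshold. GNB1 differed from sham by −0.13 ± 0.08 and −0.19 ± 0.08 after X-rays and protons, GNB2 by 0.03 ± 0.07 and −0.03 ± 0.07, GNB4 by 0.02 ± 0.19 and −0.18 ± 0.19, and GNB5 by −0.02 ± 0.07 and −0.06 ± 0.07. GNB3 was the lowest of them, at −0.27 ± 0.17 and −0.50 ± 0.17. The 8 other gamma subunit genes with an entry ranged from −1.05 ± 0.39 for GNG7 after protons, not past the threshold, to 0.47 ± 0.13 for GNG2 after X-rays. The median over the 20 subunits was 0.01 after X-rays and −0.07 after protons, below the medians of all genes. In J3D 19 of the 29 had an entry and none passed.

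**Figure D3:**
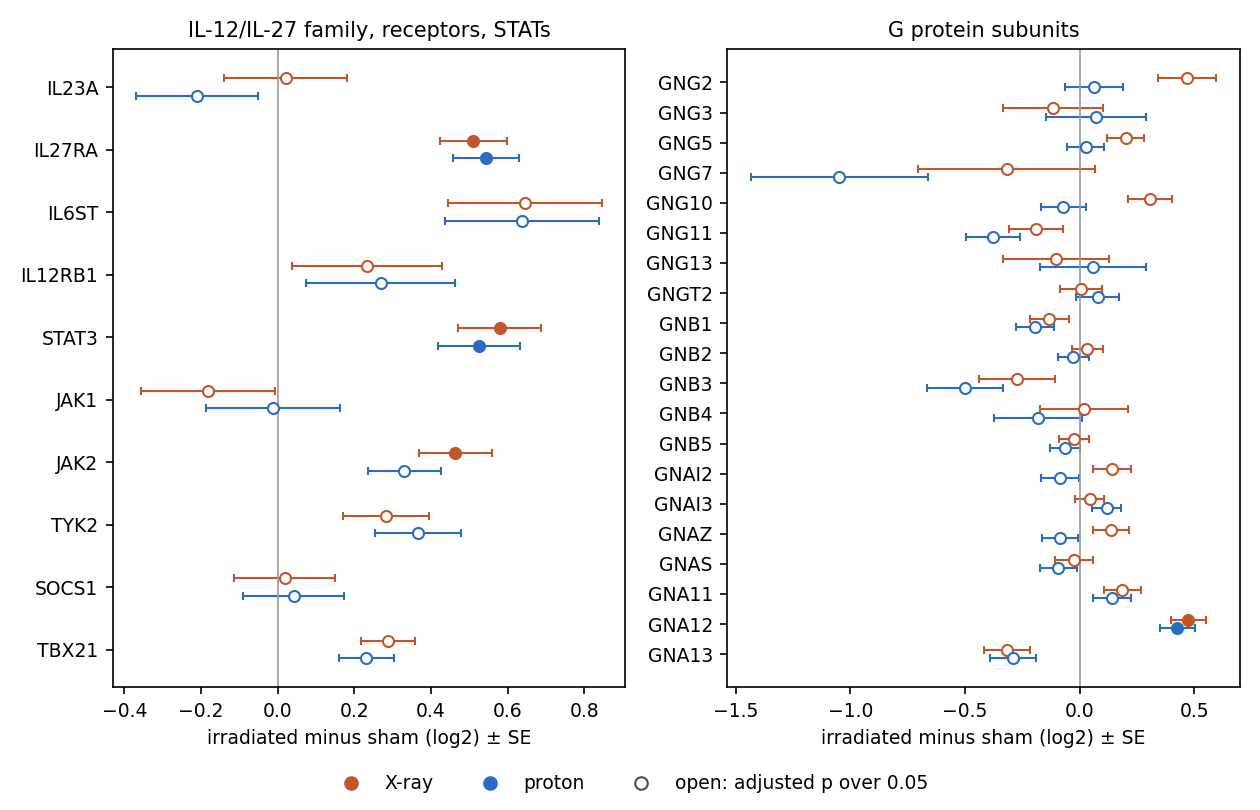
Difference from sham (log2) with its SE for reported genes of the IL-12 and IL-27 family (left) and G protein subunits (right) in BL41, after X-rays and protons, with filled symbols for genes past the threshold in limma. IL27RA and STAT3 are filled for both beams on the left, and GNA12 alone is filled on the right.

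EBI3 belongs to the genes that LMP1 of Epstein-Barr virus or CD40 signalling is known to raise in B cells. No viral transcript was examined here, so nothing is said about LMP1 in these cells. Of the 27 other genes of that list, which was drawn up with results of these libraries known, 24 had an entry. After X-rays 8 of the 24 rose and 0 fell, beside 4.83% of all genes called higher, and after protons 9 rose and 0 fell, beside 5.91%. The median difference was 0.37 against 0.09 over all genes after X-rays and 0.15 against 0.12 after protons, where it was close to that of all genes. Chemokine genes were among those that rose. CCL17, which attracts T cells through CCR4, rose by 1.64 ± 0.34 after X-rays and by 2.29 ± 0.34 after protons, and CCL22, a ligand of the same receptor, by 1.05 ± 0.19 and 1.27 ± 0.19. CCL3 rose by 1.41 ± 0.33 and 1.87 ± 0.33, and CCL5 by 1.45 ± 0.12 and 1.28 ± 0.12. TNFAIP3, which encodes the NF-kB inhibitor A20, stood at −0.69, −0.88 and −0.67 in the sham libraries, 0.21, 0.16 and 0.37 after X-rays, and 0.36, 0.21 and 0.36 after protons. Its irradiated libraries were well separated from its sham libraries, while the X-ray and proton libraries overlapped. The differences from sham were 0.99 ± 0.11 (limma adjusted p = 0.00831) and 1.06 ± 0.11 (limma adjusted p = 0.00965). TRAF1, a signalling adaptor of TNF receptors, rose by 0.72 ± 0.10 and 0.61 ± 0.10, and the homing receptor CCR7 by 0.83 ± 0.15 and 0.74 ± 0.15. FAS, a death receptor, rose after X-rays by 0.55 ± 0.13 and stood at 0.02 ± 0.13 after protons, and CCL4 and FCER2 rose after protons by 1.53 ± 0.37 and 0.86 ± 0.19, with 1.02 ± 0.37 and 0.45 ± 0.19 after X-rays, short of the threshold. No gene of the list passed the test between the beams. Other members of the list barely differed, with NFKBIA, the inhibitor IkB-alpha, at −0.10 ± 0.09 and 0.08 ± 0.09 and CD40 at 0.10 ± 0.15 and 0.04 ± 0.15.

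Of 21 NF-kB, IRF and STAT transcription factor genes, 19 had an entry, of which 4 rose after X-rays and 6 after protons and 0 fell, beside 4.83% and 5.91% of all genes called higher. The NF-kB subunit genes were not among those that passed. NFKB1 differed from sham by 0.09 ± 0.10 and 0.14 ± 0.10, RELA by 0.15 ± 0.09 after either beam, REL by −0.20 ± 0.23 and −0.02 ± 0.23, and RELB by 0.05 ± 0.14 and −0.12 ± 0.14. NFKB2 was the highest, at 0.47 ± 0.15 (limma adjusted p = 0.106) and 0.28 ± 0.15. The genes that rose after both beams were IRF5 (0.51 ± 0.09 and 0.42 ± 0.09), IRF7 (0.39 ± 0.09 and 0.43 ± 0.09), STAT2 (0.46 ± 0.11 after either beam) and STAT3, all of which act in cytokine or interferon signalling, and STAT6 rose after protons by 0.45 ± 0.11. The median of the list was 0.15 after each beam, against 0.09 and 0.12 over all genes. In J3D, 16 of the 21 transcription factor genes and 10 of the 27 LMP1 and CD40 genes had an entry, and 0 were called.

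IL32 and EBI3 are also known from T cells, NK cells and dendritic cells, so markers of those cells were read in the same libraries. Of 19 T-cell and NK-cell markers 14 had no entry, and of the other 5, CD3E, CD247, ZAP70 and NKG7 did not pass after either beam, while LCK fell by 0.59 after protons (SE 0.13). The median of the 5 markers ranged from −0.05 to 0.066 in the sham libraries, from −0.036 to 0.075 after X-rays and from −0.078 to 0.032 after protons, so the groups overlapped. Of 14 myeloid and dendritic-cell markers 12 had no entry, and the other 2 are CD163 and CD1C. CD163, a scavenger receptor of macrophages, rose after X-rays by 0.64 ± 0.15 and stood at 0.58 ± 0.15 after protons. CD1C, which B cells also carry, stood at 0.84 ± 0.39 and 1.48 ± 0.39, not past the threshold. The part of these markers in the values of IL32, EBI3 and GNG8 was not tested. All 12 B-cell and germinal-centre markers had an entry. CD72 was higher after both beams (0.41 ± 0.09 and 0.42 ± 0.09) and MME, which encodes CD10, lower after protons (−0.52 ± 0.11). The other 10 did not pass the threshold. Over all genes, 4.83% were called higher and 0.518% lower after X-rays, and 5.91% and 0.903% after protons. So few markers of each kind had an entry that nothing about cell types is read from these calls. In J3D the only B-cell marker with an entry was Cd22, so the lineage of that line could not be checked against the list.

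Genes next to the 3 on the chromosome were compared to see whether they moved as well. The nearest 3 genes with an entry on each side were taken by the order of RefSeq genes on GRCh38.p14, 18 in all. Next to IL32 on chromosome 16, THOC6 differed from sham by −0.07 ± 0.11 and 0.17 ± 0.11 and ZNF213 by 0.03 ± 0.10 and 0.02 ± 0.10, and HCFC1R1, ZNF200, ZNF263 and the TNF-family receptor gene TNFRSF12A (0.40 ± 0.20 and 0.27 ± 0.20) did not pass either. Next to EBI3 on chromosome 19, SIRT6 differed by 0.11 ± 0.08 and −0.07 ± 0.08 and CCDC94 by −0.02 ± 0.08 and 0.05 ± 0.08, while ZBTB7A, MAP2K2 and MPND lay within 0.18 of sham. FSD1, the next gene but one after EBI3, was the 1 neighbour called. It stood at −0.59, −0.33 and −0.78 in the sham libraries, 0.41, 0.17 and 0.19 after X-rays, and 0.28, 0.07 and 0.13 after protons. It rose by 0.82 ± 0.13 (limma adjusted p = 0.0193) and 0.72 ± 0.13 (limma adjusted p = 0.024), below the 1.68 ± 0.33 and 1.91 ± 0.33 of EBI3. Next to GNG8, also on chromosome 19, CALM3 differed by −0.01 ± 0.12 and −0.12 ± 0.12 and DACT3, a regulator of Wnt signalling, by 0.45 ± 0.11 (limma adjusted p = 0.0518) and 0.30 ± 0.11. DACT3-AS1 is the antisense partner of DACT3, and as it is not given whether the libraries kept the strand, their reads cannot be told apart. PGLYRP1, PPP5C and PRKD2 did not pass. In all, 1 of 18 neighbours was called after each beam, a share near the 4.83% and 5.91% of all genes called higher, and 0 between the beams.

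**Figure D4:**
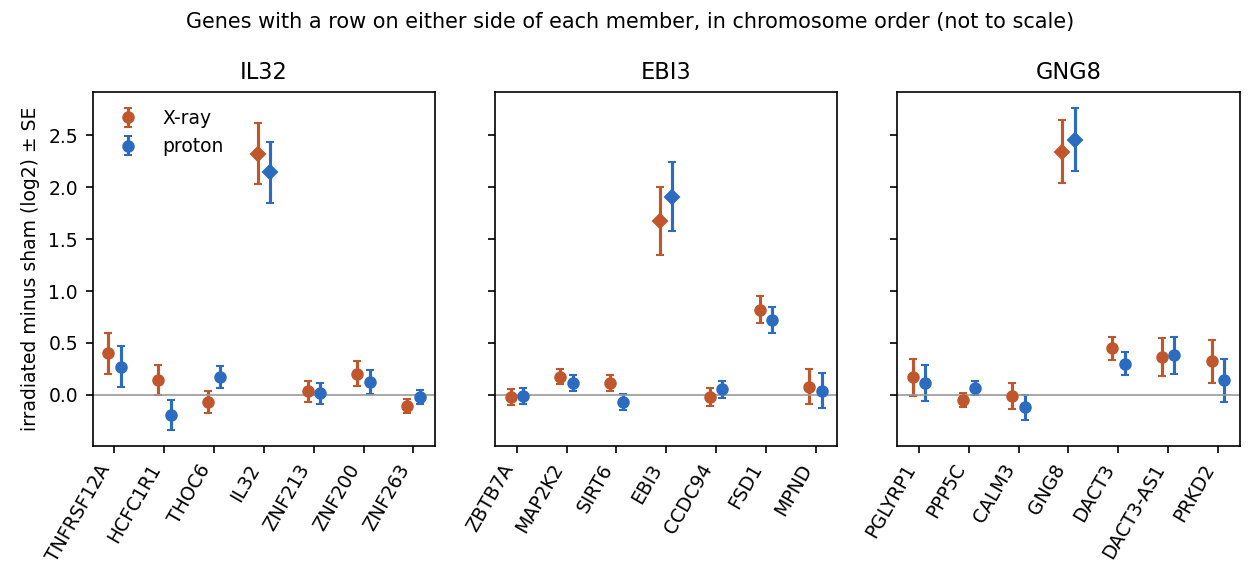
Difference from sham (log2) with its SE for IL32, EBI3 and GNG8 (diamonds) and the 3 nearest genes with an entry on each side (circles), in chromosome order and not to scale. FSD1 next to EBI3 reaches 0.82 after X-rays, and the remaining neighbours lie at 0.45 or below.

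J3D gave no call in any comparison. In limma 0% of its 12264 genes passed after X-rays, 0% after protons and 0% between the beams, with 765, 2425 and 1456 genes at an unadjusted p under 0.05 and lowest adjusted p-values of 0.441, 0.206 and 0.147. Each other fit on all 9 libraries of J3D also called 0 genes. Mouse counterparts of IL32, EBI3 and GNG8 were not analysed here, since none had an entry, and no difference between the lines in these genes was tested.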

How the data were processed

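Per the submitters' processing notes, reads were handled with TopHat2 and the builds hg19 and mm10. How reads were counted and values normalized, and on which gene models, was not given in the sources used here. Values that the authors deposited, 1 table per cell line, were read as log2 expression values centred, within each replicate number, on an average over 4 libraries, only 3 of them analysed here. Where 2 of the 3 BL41 values were tied at the lowest (within 1e-06), the value implied for the library not analysed equalled it for 63.6 to 66.8% of those genes, and lay below it for 0. Depth is unknown, so precision rests on the spread between libraries.

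Each line was fitted on its 9 libraries with limma 3.58.1 in R 4.3.3 (statmod 1.5.0), with a mean per group, a variance trend, robust moderation and no pseudocount. P-values were Benjamini-Hochberg adjusted over all genes, with a threshold of 0.05. The fit was tested on simulated data. Motif searches ran in Python 3.11.15 (pandas 2.3.3, numpy 2.4.6), and figures were drawn with matplotlib 3.10.9. The replicate number was not a term, although the centring within it ties same-numbered libraries, so errors may be understated. Same-numbered BL41 libraries correlated at −0.452 to −0.117 in their deviations from group means, values that the centring biases, and no label says what the number marks. Residual degrees of freedom were 6, or 4 with the number as a block. Of the BL41 entries, 57 have no symbol and 655 share 148 symbols, and each was tested by itself.

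Members and the 8 gene lists were chosen with earlier results of these data known. The text names the 3 genes, list members past the threshold (at most 6 per comparison) and their direct partners, other list members as contrast chosen after their values were seen, all genomic neighbours and the 5 genes most like each. A gene of the lists that counts and medians include is not reported here by itself. Older symbols were looked up in RefSeq for BL41. Alternatives were leaving out each library, the block, only the 2 groups compared, plain limma, quantile normalization, trimmed means and leaving out tied lowest values. Tests planned for Ebi3 and Gng8 in J3D had no entry to run on.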

Additional observations from a re-analysis of the deposited data

How the results depend on the processing

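Differences of IL32, EBI3 and GNG8 from sham kept their sign and moved by less than 1 SD under all 15 alternatives. Several of these cannot change the estimate, only its error. They are the block, the fit of 2 groups, plain limma, leaving out tied lowest values and leaving out a library of the third group. For IL32 after X-rays the SE was 0.29 in the main fit, 0.36 with the block, 0.39 with 2 groups and 0.24 with plain limma. Leaving out each library in turn gave 2.11 to 2.60, 1.43 to 1.98 and 2.13 to 2.57 after X-rays, and 2.0 to 2.31, 1.80 to 2.03 and 2.25 to 2.69 after protons. Protons minus X-rays ranged from −0.46 to 0.03 for IL32 (limma adjusted p 0.385 to 0.991), from −0.08 to 0.48 for EBI3 (0.684 to 0.913) and from −0.06 to 0.28 for GNG8 (0.785 to 0.999). The sign turned without X-ray library 3 for IL32 (0.0298), without X-ray library 2 for EBI3 (−0.0750) and GNG8 (−0.0618), and without proton library 2 for GNG8 (−0.00129).

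Counts of calls were fragile. The 806 genes called after X-rays became 0 with the replicate block, 0 with only the 2 groups fitted, 129 with quantile normalization and 334 with trimmed means, and the 18 list members became 0, 0, 5 and 10. After protons 1027 genes became 0, 0, 533 and 346, and 21 list members became 0, 0, 13 and 9. Quantile normalization called 1 gene between the beams. The 1 neighbour called after X-rays became 0 with the block, 0 with 2 groups, 0 with quantile normalization and 2 without tied lowest values, and the 1 after protons became 0 with the block, 2 groups or trimmed means. Leaving out a library gave 0 (without X-ray library 1) to 808 genes and 0 to 15 list members after X-rays, 0 (without proton library 3) to 710 and 0 to 18 after protons, 0 to 1 between the beams, and 0 to 1 neighbour after each beam. In J3D it gave 0 to 0, 0 to 1 and 0 to 1. The block leaves 4 residual degrees of freedom in place of 6. Why the counts fell was not tested. Whether the numbers also pair the cultures could not be settled, since the centring biases their correlation. The centring itself ties same-numbered libraries, and the fit without a block ignores this. With the block the limma adjusted p was 0.132 after X-rays and 0.148 after protons for IL27RA. For FSD1 it was 0.0968 and 0.14. Alternatives for Ebi3 and Gng8 in J3D were not run, as neither has an entry.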
